A study of Sus scrofa with 19 samples.

Results

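*Actinobacteria*, a bacterial phylum of the gut, were divided here in each boar into the genus *Bifidobacterium*, the family *Coriobacteriaceae* and the rest of the phylum. The members were 3 rows of the deposited taxon tables (the phylum *Actinobacteria*, the family *Coriobacteriaceae* and the genus *Bifidobacterium*) of 87 named rows in 6 tables, chosen by name and taxonomic rank. The fecal microbiota was read from amplified 16S rRNA genes, which bacteria and archaea carry, and every value is a relative abundance, that is the percent of a boar's sequences assigned to a taxon. The AOS10 group was 10 Duroc boars fed a basal diet with alginate oligosaccharides at 10 mg/kg body weight, and the CON group was 9 Duroc boars on the basal diet without them. Alginate oligosaccharides are short sugar chains cut from the alginate of brown seaweed. Feces were taken after 9 weeks of feeding, 1 sample per boar, and the CON boars carry the numbers 1 to 10 without 6. The methods give 10 boars in each group, and why CON has 9 samples here is not stated in the sources used. The methods give an age of about 24 months, but the sample labels list 24 to 33 months for AOS10 and 34 to 42 months for CON, in steps of 1 from sample to sample. If the label ages hold, age and diet cannot be told apart. The tables hold fractions with no counts or depths, so the depth behind each share was taken as unknown, and the smallest shares above 0 were 0.00208% to 0.00456% in AOS10 boars and 0.00220% to 0.00240% in CON boars.

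*Actinobacteria* are Gram-positive bacteria with DNA rich in G and C. *Bifidobacterium* ferments plant, milk and mucin oligosaccharides through its own phosphoketolase pathway, the bifid shunt, and releases acetate and lactate, which other gut bacteria take up and turn into butyrate. *Coriobacteriaceae*, in the older taxonomy that keeps *Collinsella*, *Olsenella*, *Eggerthella* and their relatives in 1 family, are anaerobes of the mammalian gut, and members of them ferment sugars or modify bile acids, steroids and plant polyphenols.

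These 2 lineages made up nearly the whole phylum in all boars but AOS10 boar 3 and, less so, CON boar 1, where the rest held 8.72% and 2.81% of *Actinobacteria*. In the other boars the rest was at most 0.619% of the phylum in AOS10 and 0.868% in CON. The class *Actinobacteria* equalled the phylum, the order *Coriobacteriales* equalled *Coriobacteriaceae*, and the order *Bifidobacteriales* and the family *Bifidobacteriaceae* equalled *Bifidobacterium*, each in 19 of 19 boars to within 1e-09 percentage points. The remainder of the phylum, left after subtraction of both lineages, lay between 0.00231% and 0.106% of all sequences in AOS10 boars and between 0.00880% and 0.0387% in CON boars. It averaged 0.0268% ± 0.0306 in AOS10 (SD, n = 10) and 0.0193% ± 0.0114 in CON (SD, n = 9), a difference of 0.00750 percentage points (two-sided exact permutation test over all 92378 ways to divide the boars, p = 0.617, adjusted p = 0.771 over the 5 values derived from the split). The direction of this difference rests on AOS10 boar 3, and without that boar it was -0.00129 percentage points. No genus of *Coriobacteriaceae* and no actinobacterial species had a row of its own, so the sequences of this family sat within the remainder of the genus table named Others, of which they made up 5.61% ± 3.10 in AOS10 and 3.66% ± 2.36 in CON.

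The phylum had a higher mean in AOS10, and the difference did not pass its test. *Actinobacteria* ranged over 1.21% to 12.9% in AOS10 boars with a median of 5.89%, against 1.11% to 7.004% in CON boars with a median of 2.54%. The groups overlapped, and 8 of the AOS10 boars exceeded the CON median, 3 of which also exceeded the highest CON boar. The 3 AOS10 boars above every CON boar were 5, 2 and 7, at 12.9%, 7.97% and 7.52%. The lowest AOS10 boars were 3 and 4, at 1.21% and 1.53%, near the lowest CON boars, 7 and 1, at 1.11% and 1.38%. The mean difference was 2.47 percentage points, or 0.76 on the log2(percent + 0.01) scale with a standard error of 0.45 (limma, adjusted p = 0.304). The exact permutation test gave p = 0.0797, with an adjusted p of 0.319 over 4 phyla.

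**Figure D1:**
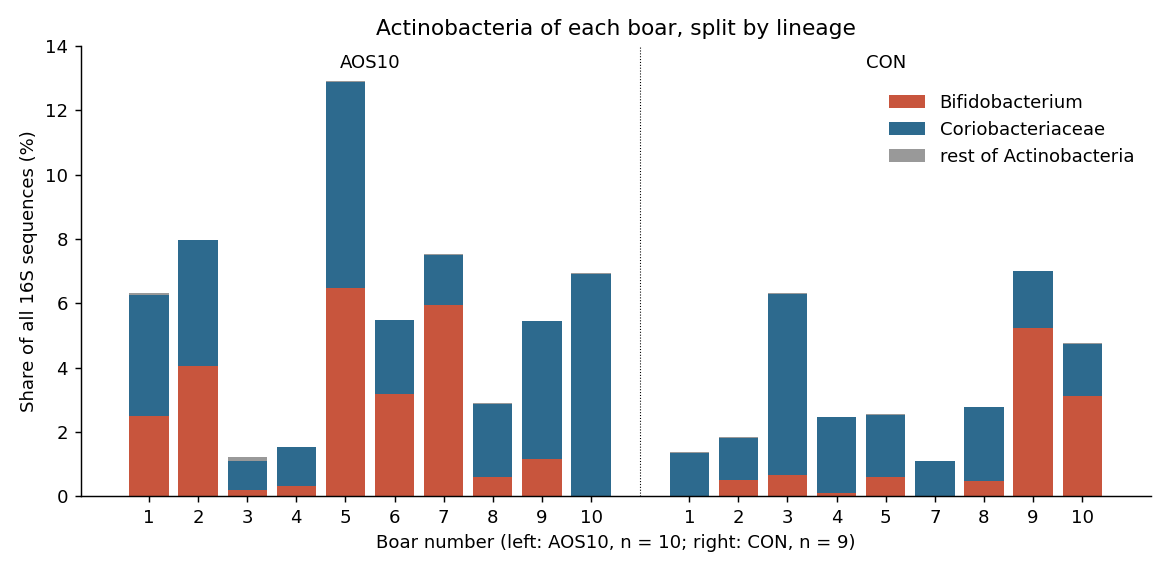
Each bar is the relative abundance of *Actinobacteria* in 1 boar, in percent of all sequences from 0, stacked into *Bifidobacterium*, *Coriobacteriaceae* and the rest, with the 10 AOS10 boars left of the 9 CON boars. The rest, at most 0.106%, is hardly visible, and the *Bifidobacterium* segment is the larger one in AOS10 boars 2, 5, 6 and 7 and in CON boars 9 and 10.

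*Coriobacteriaceae* were present in every boar, at no less than 0.922%. In AOS10 boars they ranged over 0.922% to 6.90% with a median of 3.03%, against 1.08% to 5.63% in CON boars with a median of 1.77%. The CON range lay within the AOS10 range, and 7 of the AOS10 boars exceeded the CON median, while only boars 5 and 10, at 6.40% and 6.90%, lay above the highest CON boar. CON boar 3, at 5.63%, stood apart from the other CON boars, of which the highest was boar 4 at 2.36%. The family averaged 3.35% ± 2.09 in AOS10 (SD, n = 10) and 2.15% ± 1.38 in CON (SD, n = 9), a difference of 1.20 percentage points and a ratio of means of 1.56 (exact permutation p = 0.162, adjusted p = 0.448 over 15 families). On the log2(percent + 0.01) scale the difference was 0.53 with a standard error of 0.41 (limma, adjusted p = 0.569). Without CON boar 3 the difference was 1.64 percentage points with an unadjusted exact permutation p of 0.0450 (adjusted p = 0.492), and without AOS10 boar 10 it was 0.809 percentage points (exact permutation p = 0.299).

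Relative to its mean, *Bifidobacterium* varied more between boars of the same group than *Coriobacteriaceae* did. In percentage points the spreads were closer. The SD of *Bifidobacterium* was 2.40 in AOS10 and 1.79 in CON, beside 2.09 in AOS10 and 1.38 in CON for *Coriobacteriaceae*. In AOS10 boars the genus ranged over 0.0156% to 6.48% with a median of 1.83%, against 0.0120% to 5.22% in CON boars with a median of 0.506%. Both groups thus reached from traces to several percent, and 7 of the AOS10 boars exceeded the CON median. The lowest AOS10 boar was 10, at 0.0156%, and the next, boar 3, had 0.187%. In CON, boars 7, 1 and 4 had 0.0120%, 0.0205% and 0.0926%, and boars 9 and 10 had 5.22% and 3.10%, while the other 4 lay between 0.465% and 0.646%. The highest boar exceeded the lowest 415-fold in AOS10 and 436-fold in CON, whereas for *Coriobacteriaceae* these folds were 7.49 in AOS10 and 5.19 in CON. The lowest *Bifidobacterium* shares lay near the smallest share above 0 of the same boar. That was 0.00446% in AOS10 boar 10 and 0.00240% in CON boar 7, so the size of these folds is imprecise. The AOS10 fold of *Bifidobacterium* rested on boar 10 and was 34.7 without it, and the CON fold was 255 without CON boar 7 and 259 without CON boar 9, values chosen after seeing the data. The CON fold of *Coriobacteriaceae* was 2.18 without CON boar 3. The coefficient of variation was 98.4% in AOS10 and 151% in CON for *Bifidobacterium*, beside 62.4% in AOS10 and 64.0% in CON for *Coriobacteriaceae*. The mean difference of the genus, 1.26 percentage points, had an exact permutation p of 0.216 and an adjusted p of 0.460 over the 18 genera tested. It ranged from 0.809 percentage points without AOS10 boar 5 to 1.76 without CON boar 9.

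**Figure D2:**
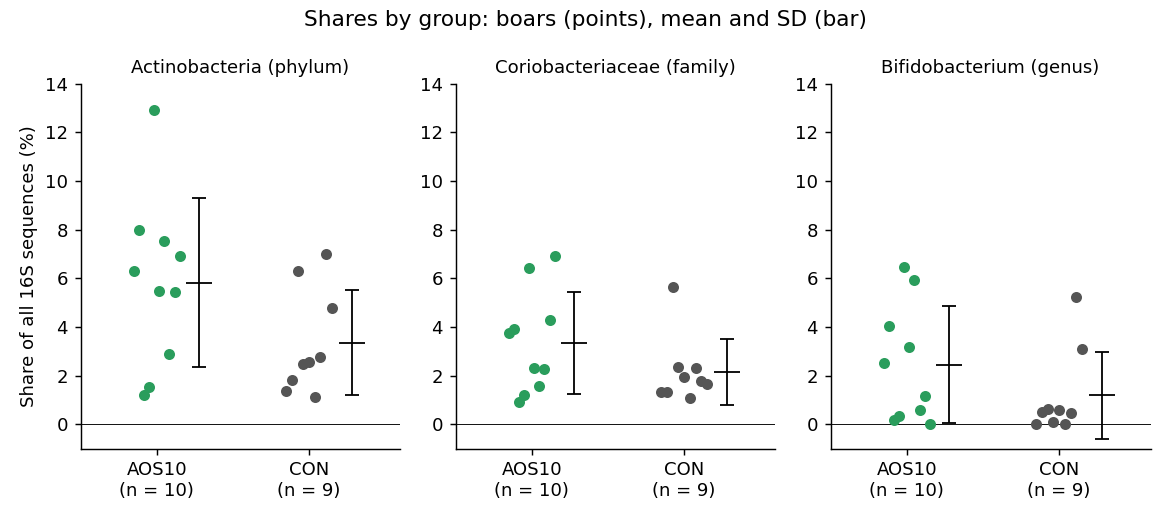
Points are single boars, AOS10 left of CON in each panel, for *Actinobacteria*, *Coriobacteriaceae* and *Bifidobacterium* in percent of all sequences, and the bars beside them give the mean and SD. The groups overlap in every panel, and CON boar 3 (*Coriobacteriaceae*, 5.63%) and CON boars 9 and 10 (*Bifidobacterium*, 5.22% and 3.10%) stand above the other CON boars.

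All 3 members had a higher mean in AOS10, as did 50% of the 4 phyla, 46.7% of the 15 families and 55.6% of the 18 genera tested. For the tables that repeat the members at other ranks or hold none, this share was 33.3% of classes, 75% of orders and 46.2% of species. At an adjusted p under 0.05, 0 of the 3 members passed the exact permutation test, with 0% of phyla, 0% of families and 0% of genera called. At an unadjusted p under 0.05, 0 of the 3 passed as well, beside 0% of phyla, 0% of families, 5.56% of genera and 9.52% of classes. Over the 79 taxa tested in the 6 tables, the exact permutation test called 0 after adjustment and 3 at an unadjusted p under 0.05, and limma called 0 and 1. The phylum includes both lineages, so the 3 values are not independent of each other.

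Each lineage carried a similar part of the difference in the phylum mean. Of the 2.47 percentage points, *Bifidobacterium* made up 1.26 points, or 50.9%, and *Coriobacteriaceae* 1.20 points, or 48.8%, and the rest of the phylum 0.304%. The *Bifidobacterium* part was 38.1% without AOS10 boar 7 and 65.1% without AOS10 boar 10, the lowest and highest values with 1 boar left out. Of the group mean of the phylum, *Coriobacteriaceae* held 57.6% in AOS10 and 64.1% in CON, and *Bifidobacterium* held 42.0% in AOS10 and 35.4% in CON. The last value was 23.5% without CON boar 9, the largest move of any CON boar.

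The spread of the phylum between boars went more with *Bifidobacterium*, although *Coriobacteriaceae* held more of the mean. As a description, the covariance of a lineage with the phylum divided by the variance of the phylum gave 56.1% in AOS10 and 63.8% in CON for *Bifidobacterium*, and 44.1% in AOS10 and 36.1% in CON for *Coriobacteriaceae*. Single boars decided the CON value of *Bifidobacterium*, which was 32.1% without CON boar 9 and 93.4% without CON boar 3. These were the 2 CON boars with the highest *Actinobacteria*, at 7.004% and 6.31%, the first mostly *Bifidobacterium* and the second mostly *Coriobacteriaceae*.

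Within the phylum, which takes other phyla out of the denominator, *Bifidobacterium* ranged over 0.225% to 78.9% of *Actinobacteria* in AOS10 boars with a median of 30.6%, against 1.08% to 74.6% in CON boars with a median of 16.7%. The ranges were nearly the same. The mean was 35.7% ± 23.8 in AOS10 (SD, n = 10) and 24.9% ± 27.3 in CON (SD, n = 9), a difference of 10.7 percentage points (exact permutation p = 0.368, adjusted p = 0.713). *Coriobacteriaceae* made up 63.2% ± 23.2 of the phylum in AOS10 and 74.3% ± 26.8 in CON, a difference of -11.1 points (exact permutation p = 0.344, adjusted p = 0.713), and the median was 67.8% among AOS10 boars and 82.5% among CON boars. With 1 boar left out, these differences ranged over 5.93 (without AOS10 boar 7) to 16.9 (without CON boar 9) for *Bifidobacterium* and over -17.2 (without CON boar 9) to -6.35 (without AOS10 boar 7) for *Coriobacteriaceae*. The log2 ratio of *Bifidobacterium* to *Coriobacteriaceae*, with 0.01 percentage points added to each, was -1.41 ± 2.69 in AOS10 and -2.39 ± 2.58 in CON, a difference of 0.99 (exact permutation p = 0.428, adjusted p = 0.713). It was 0.58 without CON boar 7 and 1.73 without AOS10 boar 10 (exact permutation p = 0.0961, adjusted p = 0.367). Negative values mean more *Coriobacteriaceae* than *Bifidobacterium*, and AOS10 boar 10 had the lowest of all boars, at -8.08. The *Bifidobacterium* share of this boar, 0.0156%, lay near its smallest share above 0, 0.00446%. Within the phylum the shares of both lineages nearly mirror each other, as the rest was small in most boars. The log2 ratio is built from the same lineages, so these comparisons are not independent of each other.

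**Figure D3:**
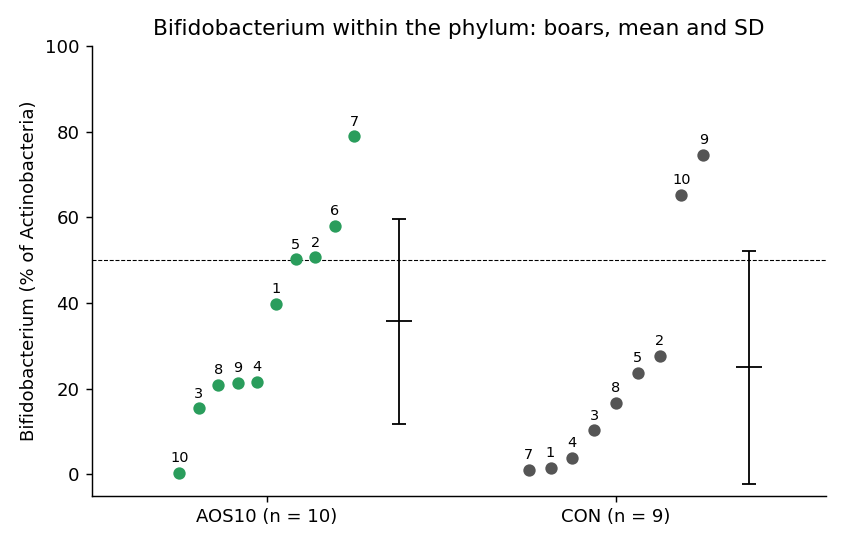
Points are single boars, numbered and sorted within the group, AOS10 left of CON, with *Bifidobacterium* in percent of the *Actinobacteria* of the same boar, and the bars give the mean and SD. The dashed line marks 50%, above which lie 4 AOS10 boars and 2 CON boars.

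*Coriobacteriaceae* were the larger lineage in 13 of 19 boars. *Bifidobacterium* exceeded them in 4 of 10 AOS10 boars, numbers 2, 5, 6 and 7, and in 2 of 9 CON boars, numbers 9 and 10 (two-sided Fisher's exact test, p = 0.628). In AOS10 boars 2 and 5 the lineages were nearly equal, with *Bifidobacterium* at 50.6% and 50.2% of the phylum, whereas it held 58.0% in AOS10 boar 6, 78.9% in AOS10 boar 7, 74.6% in CON boar 9 and 65.2% in CON boar 10. The difference within a boar, *Bifidobacterium* minus *Coriobacteriaceae*, averaged -0.910 percentage points ± 2.88 in AOS10 (SD, n = 10; exact sign-flip permutation p = 0.369) and -0.963 ± 2.35 in CON (SD, n = 9; exact sign-flip permutation p = 0.266), both with an adjusted p of 0.369. The AOS10 mean minus the CON mean was 0.0535 percentage points (exact permutation p = 0.966). Single boars set both means, which ranged over -1.50 (without boar 7) to -0.245 (without boar 10) in AOS10 and over -1.52 (without boar 9, exact sign-flip permutation p = 0.0469, adjusted p = 0.0938) to -0.461 (without boar 3) in CON. On the log2(percent + 0.01) scale the CON value was -2.39 with an exact sign-flip permutation p of 0.0313 (adjusted p = 0.0625), and the AOS10 value was -1.41 (p = 0.105, adjusted p = 0.105).

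Whether the 2 lineages varied together was asked over boars, and no correlation passed its test. Among AOS10 boars Spearman's rho of *Bifidobacterium* with *Coriobacteriaceae* was 0.19 (permutation p = 0.610) and Pearson's r was 0.19 (permutation p = 0.608). Without AOS10 boars 5 and 7, the farthest from the median *Bifidobacterium* share, rho was 0.17 and r was 0.06. Among CON boars rho was 0.33 (exact permutation p = 0.385) and r was -0.09 (exact permutation p = 0.788), so the sign depended on the coefficient. Without CON boars 9 and 10, the only CON boars above 1% *Bifidobacterium*, rho was 0.57 (exact permutation p = 0.200) and r was 0.55 (exact permutation p = 0.138). Over all boars with the group means removed, rho was 0.25 (permutation p = 0.315) and r was 0.10 (permutation p = 0.707), and without AOS10 boars 5 and 7 rho was 0.26 and r was -0.02. Over these 3 sets of boars the adjusted p was at least 0.578 for rho and 0.788 for r. The rho of AOS10 boars minus that of CON boars was -0.15 (exact permutation of the group labels, p = 0.815).

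Single boars weighed heavily on these coefficients. With 1 boar left out, rho ranged over 0.03 to 0.63 among AOS10 boars, 0.05 to 0.48 among CON boars and 0.14 to 0.48 over all boars with the group means removed. The low ends came without AOS10 boar 3, 4 or 5, without CON boar 7 and without AOS10 boar 4. AOS10 boar 10 had the highest *Coriobacteriaceae* of all boars, 6.90%, and 0.0156% *Bifidobacterium*, the lowest in AOS10. Without boar 10 rho was 0.63 among AOS10 boars (permutation p = 0.0760) and 0.48 over all boars with the group means removed (permutation p = 0.0503), with an adjusted p of 0.114 for both. The other boars covered most combinations, such as AOS10 boar 5, high in both lineages at 6.40% *Coriobacteriaceae* and 6.48% *Bifidobacterium*, and AOS10 boar 3, low in both at 0.922% and 0.187%. AOS10 boar 7 had 1.55% *Coriobacteriaceae* beside 5.93% *Bifidobacterium*. Both lineages are shares of 1 total, which ties their values to each other and to every other taxon.

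**Figure D4:**
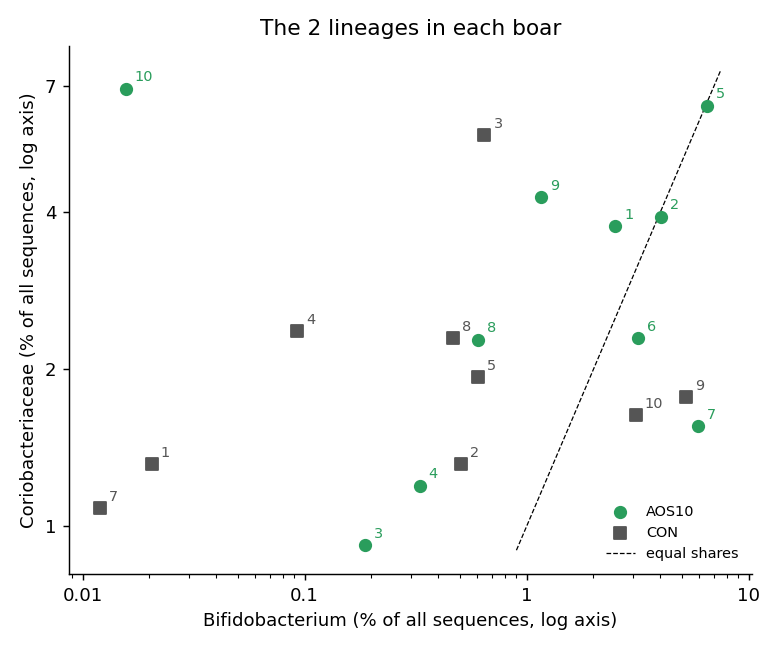
Each point is a boar, numbered, with *Bifidobacterium* on the x axis and *Coriobacteriaceae* on the y axis, both in percent of all sequences on log axes, and the line marks equal shares. Most boars lie on the *Coriobacteriaceae* side, 13 of 19, and AOS10 boar 10 lies at 6.90% *Coriobacteriaceae* and 0.0156% *Bifidobacterium*.

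AOS10 boar 3 had the least *Coriobacteriaceae* of all boars, and 54.4% of its sequences belonged to *Murdochiella*, a genus of anaerobic cocci that held at most 0.128% in any other boar. With *Murdochiella* taken out of the total, this boar had 2.66% *Actinobacteria*, 2.02% *Coriobacteriaceae* and 0.409% *Bifidobacterium*. The difference in the phylum mean was then 2.61 percentage points (exact permutation p = 0.0541, adjusted p = 0.216), that of *Coriobacteriaceae* 1.31 and that of *Bifidobacterium* 1.28. The part of *Murdochiella* in the difference between groups was not tested further.

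Among the families listed, *Coriobacteriaceae* ranked between 3 and 9 in AOS10 boars with a median of 7 and between 3 and 11 in CON boars with a median of 8. *Bifidobacterium* ranked between 2 and 18 of 19 genera in AOS10 boars with a median of 8 and between 1 and 19 in CON boars with a median of 15. The genus was thus the first of all listed genera in CON boar 9 and the last in CON boar 4.

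The taxa whose shares ran most like each lineage over the 19 boars are given as a description by Spearman's rho, over 14 other families and 18 other genera. For *Coriobacteriaceae* they were *Lachnospiraceae*, which include many butyrate and acetate producers (0.67), *Erysipelotrichaceae* (0.65) and *Lactobacillaceae*, lactate formers (0.41). Within the groups the coefficient with *Lachnospiraceae* was 0.78 in AOS10 and 0.53 in CON, and that with *Lactobacillaceae* was 0.92 in AOS10 and -0.07 in CON. For *Bifidobacterium* they were *Lactobacillus* (0.61), *Sporobacter* (0.34) and *Eubacterium* (0.27). Most of the *Eubacterium* share belonged to the species *Eubacterium coprostanoligenes*. The species had means of 2.16% in AOS10 and 2.57% in CON, beside 2.49% and 2.85% for the genus. The coefficient with *Lactobacillus*, which like *Bifidobacterium* ferments sugars to lactate, was 0.41 in AOS10 and 0.77 in CON. That with *Streptococcus*, another lactate former, was -0.47 over all boars, the lowest of the 18, with -0.09 in AOS10 and -0.87 in CON. *Eubacterium* had 0.31 in AOS10 and 0.17 in CON, below *Barnesiella*, with 0.43 in AOS10 and 0.52 in CON, and *Terrisporobacter*, with 0.55 in AOS10 and 0.23 in CON, so the order within groups differed from that over all boars. All these shares come from the same total and the same libraries.

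Genera listed as forming lactate, or as turning acetate and lactate into butyrate, did not pass the test. The lists go by genus name, and whether the species in these boars form these products was not tested. Of 7 listed lactic acid bacteria, *Lactobacillus* and *Streptococcus* were in the genus table, and their means were higher in AOS10 for 0 of the 2, although the median of their limma log2 fold changes was 0.30, the opposite sign. Of 10 listed butyrate producers, 6 were in the table, of which 4 had a higher and 2 a lower mean in AOS10, with a median log2 fold change of -0.17. After adjustment 0 of these genera passed, and of the butyrate producers *Oscillibacter*, lower in AOS10, had an unadjusted exact permutation p of 0.0222 (adjusted p = 0.399). Over all 18 genera tested, 10 had a higher and 8 a lower mean, with a median log2 fold change of -0.04. Spearman's rho with *Bifidobacterium* was positive for 4 of the 6 butyrate producers with a median of 0.06. Over all 17 tested genera other than *Bifidobacterium*, these 6 included, it was positive for 12 with a median of 0.06. With *Coriobacteriaceae* it was positive for 5 of the 6 with a median of 0.32, and for 11 of the same 17 genera with a median of 0.19.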

How the data were processed

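The authors extracted fecal DNA, amplified the V3–V4 part of the 16S rRNA gene, merged paired reads with FLASH, filtered them in QIIME, removed chimeras, grouped reads into operational taxonomic units, classified these against Greengenes and normalized to the smallest sample. Whether the deposited fractions were taken before or after that normalization is not stated in the sources used here. The smallest share above 0 differed between boars. Each deposited value is a taxon's fraction of a boar's sequences, in 6 tables (phylum to species). Counts are not in them, so no counting intervals are given, and the precision rests on the spread between boars. A sequencing batch is not given in the sources used here.

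Fractions were multiplied to percent, and the rest of the phylum was obtained by subtraction. Taxa above 0 in at least 5 boars were tested. Means were compared by two-sided exact permutation tests with Benjamini-Hochberg adjustment within each table or family of values at 0.05, and by limma 3.58.1 (R 4.3.3) on log2(percent + 0.01). Correlations used 100000 resamples, or all pairings for 9 boars or fewer. Computations ran in scipy 1.17.1, numpy 2.4.6 and pandas 2.3.3 under Python 3.11.15. The tests were checked on simulated data. The text names the 3 members, every other actinobacterial row, the 3 taxa most alike to each lineage and the listed genera. *Murdochiella* and the species *Eubacterium coprostanoligenes* were named after their values were seen. The members, lists and alternatives were chosen with earlier results of these data known. Alternatives changed the summary, scale, pseudocount, denominator, coefficient, filter and set of boars.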

Additional observations from a re-analysis of the deposited data

Results flagged for a closer look

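In each group the highest and the lowest boar were set against the others by Dixon's test, over 16 combinations of group and measure. Chance flags about 1 in 20 where values are normal and independent. These measures are uneven shares and parts of each other, so that rate may not hold here. The test picked out 5 values, and AOS10 boar 3 was picked out for the rest of the phylum on both of its scales. *Coriobacteriaceae* held 5.63% in CON boar 3, and the next highest CON boar had 2.36%. The log2 ratio of *Bifidobacterium* to *Coriobacteriaceae* was -8.08 in AOS10 boar 10, and the next lowest AOS10 boar had -2.24. The rest of the phylum held 0.106% of all sequences in AOS10 boar 3, and the next highest AOS10 boar had 0.0390%. As a share of *Actinobacteria* the rest was 8.72% in AOS10 boar 3, with the next AOS10 boar at 0.619%, and 2.81% in CON boar 1, with the next CON boar at 0.868%. The rest of the phylum is a small difference between 3 rows, and AOS10 boar 3 was the boar with 54.4% *Murdochiella*.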

How the results depend on the processing

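Of 359 values under alternatives, 342 kept their direction and their side of the threshold. The differences in *Actinobacteria*, *Coriobacteriaceae* and *Bifidobacterium* stayed positive under every alternative run, and the smallest adjusted p over all alternatives was 0.0625. With 1 boar left out, they ranged over 1.68 to 2.98, 0.809 to 1.64 and 0.809 to 1.76 percentage points, *Bifidobacterium* as a share of the phylum differed by 5.93 to 16.9 points, and the unadjusted exact permutation p of the phylum reached 0.0318 without AOS10 boar 3 and 0.0421 without CON boar 9 (adjusted p = 0.127 and 0.168). The difference in the rest of the phylum was negative by medians, at -0.00490 points, and had no direction by ranks, at 0, and with 1 boar left out it ranged over -0.00129 to 0.0102. As a share of the phylum the difference in the rest was -0.226 points by medians and -0.497 to 0.593 points with 1 boar left out. By ranks it was -3.59, in units of mean rank and not of percent. The CON correlation was -0.0923 by Pearson's r, and the difference in rho was 0.0273 with ratios to Firmicutes and -0.30 to 0.30 with 1 boar left out. Which cause lies behind these turns was not tested, beyond the boars named.

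Samples with the same number in both groups did not consistently deviate together (correlations of -0.42 to 0.51 over 9 numbers, 4 above 0.1). Such correlations cannot show whether the numbers pair the boars, and the methods name no pairing. With the number as a replicate block only the 9 shared numbers could be used, so AOS10 boar 6 dropped out. The differences were then 2.51 points for *Actinobacteria*, 1.32 for *Coriobacteriaceae* and 1.18 for *Bifidobacterium*, and no call changed. These equal the differences without AOS10 boar 6 and without blocks. The number of taxa with an unadjusted p under 0.05, 3 of 79, was 1 by limma and 2 to 8 with 1 boar left out.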

Other observations

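The coefficients of each lineage with other taxa were compared between the groups after the data were seen, over 34 pairs, by exact permutation of the group labels. *Erysipelotrichaceae* had a Spearman's rho with *Coriobacteriaceae* of 0.76 among AOS10 boars and 0.05 among CON boars (permutation p = 0.00961, adjusted p = 0.327). The family row named *Clostridiales* had -0.73 among AOS10 boars and 0.63 among CON boars (permutation p = 0.0206, adjusted p = 0.349), and *Lactobacillaceae* had 0.92 among AOS10 boars and -0.07 among CON boars (permutation p = 0.0454, adjusted p = 0.472). *Streptococcus* had a rho with *Bifidobacterium* of -0.09 among AOS10 boars and -0.87 among CON boars (permutation p = 0.0556, adjusted p = 0.472). Of the 34 pairs, 3 had an unadjusted p under 0.05 and 0 passed adjustment. AOS10 boar 3, with 54.4% *Murdochiella* and the least *Coriobacteriaceae* of all boars, was among the AOS10 boars. Its weight on these coefficients was not tested.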
